A study of Mus musculus with 20 samples.

Results

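Adventitial fibroblasts and the progenitor cells among them are commonly recognised by 8 genes that were followed here in the mouse abdominal aorta: Pdgfra, Pi16, Dpt, Medag, Ly6a, Cd34, Serpinf1 and Dpp4. The 8 genes were taken by name from a total of 42765 genes with a symbol of their own, and their transcript values were summed per gene. These genes and the lists set beside them were chosen with earlier results of these data known. Unadjusted p-values, ranks and counts of direction for them are therefore descriptions. All 8 reached 1 FPKM (fragments per kilobase of transcript, scaled to the reads of the library) in 20 of 20 libraries, and all 8 were among the 14992 genes tested. The series is titled as a study of Rab22a, a small GTPase of endosomal traffic, and angiotensin II (AngII), the hormone that raises blood pressure. Ribosome-depleted total RNA was sequenced from whole abdominal aortas of C57BL/6 mice. The 4 groups were Rab22a knockout (KO) mice given AngII, KO mice given saline, wild type (WT) mice given AngII and WT mice given saline, with 5 libraries in each. AngII was given at 500 ng/kg/min, and both treatments lasted 14 days. The labels state neither how the Rab22a allele was made nor in which cells it is deleted, and they give no age. All of the saline mice share the saline treatment, and no untreated group was analysed here.

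The adventitia is the outer layer of the artery. It holds fibroblasts, small vessels, nerves, resident immune cells and, on the outside, perivascular fat. Its fibroblasts lay down collagen and proteoglycans, and a subset with progenitor properties can give rise to other mesenchymal cells. In rodents, infused AngII is known for thickening this layer and for raising its matrix production. Among the 8 genes, Pdgfra encodes the alpha receptor for platelet-derived growth factors. Ly6a (Sca-1) and Cd34 encode surface proteins used to sort adventitial progenitor cells in mice, and both are also found on endothelium or blood cells. Dpp4 (CD26) is a surface peptidase that marks interstitial progenitors and is also known from T cells. Pi16, Dpt and Serpinf1 encode secreted proteins. Dermatopontin, the product of Dpt, binds decorin and takes part in collagen fibril assembly, and Serpinf1 encodes the antiangiogenic factor PEDF. Medag promotes adipocyte differentiation in cultured mouse preadipocytes. The positions of the genes are those of GENCODE M21 on mm10. Pdgfra lies on chromosome 5 from 75152292 to 75198215 (plus strand), and Pi16 on chromosome 17 from 29317680 to 29330593 (plus strand). Dpt lies on chromosome 1 from 164796644 to 164824266 (plus strand), and Medag on chromosome 5 from 149411749 to 149431723 (plus strand). Ly6a lies on chromosome 15 from 74994877 to 74998031 (minus strand), and Cd34 on chromosome 1 from 194938819 to 194961279 (plus strand). Serpinf1 lies on chromosome 11 from 75409769 to 75422701 (minus strand), and Dpp4 on chromosome 2 from 62330073 to 62412231 (minus strand).

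The libraries held between 68748081 and 77391126 reads, recovered from the whole-number steps in the deposited values, and the least abundant of the 8 genes, Dpp4, still had between 392 and 4686 reads per library. The targeted gene followed the labels at the transcript level. Rab22a-201, its main protein-coding transcript, lay between 0 and 0.00563 FPKM in the 10 KO libraries and between 1.87 and 8.62 FPKM in the 10 WT libraries. The gene sum of Rab22a does not show the deletion, because of another transcript, Rab22a-203, which is annotated as subject to nonsense-mediated decay. Rab22a-203 stood at 9.20 ± 0.60 FPKM in KO AngII and 9.38 ± 1.33 FPKM in KO saline aortas, against 1.82 ± 1.01 and 2.18 ± 1.47 FPKM in WT AngII and WT saline aortas (SD, n = 5 each). Fibroblast RNA was present in every library, with decorin (Dcn) between 378 and 939 FPKM and Clec3b between 86.4 and 163 FPKM. RNA of neighbouring tissue was present as well. The adiponectin gene Adipoq lay between 326 and 654 FPKM, and the summed level of 10 skeletal muscle genes lay between 7.24 and 6387 FPKM. The summed level of 12 T and NK cell genes was 7.99 to 269.9 FPKM in KO AngII, 8.15 to 508 FPKM in KO saline, 138 to 298 FPKM in WT AngII and 41.8 to 284 FPKM in WT saline aortas. This summed level ranged more widely in KO than in WT.

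Averaged over all libraries, the secreted proteins and surface proteins of this set were expressed at very different levels per length. Dpt was the highest at 91.7 FPKM, followed by Serpinf1 at 84.7, Ly6a at 72.0, Cd34 at 55.0, Pi16 at 23.97, Pdgfra at 15.5, Medag at 10.3 and Dpp4 at 5.17 FPKM. Dpt lay above 95.6% of the tested genes and Dpp4 above 40.4%. The genes also differed in how far single libraries spread within a group. The within-group SD of log2(FPKM + 1) was 0.22 for Medag, 0.24 for Pdgfra and 0.25 for Cd34, and 18.7%, 24.2% and 26.3% of the tested genes were steadier. It was 0.62 for Ly6a and 0.81 for Dpp4, more than in 80.4% and 88.8% of the tested genes. Dpp4 ran over a 12.2-fold range across libraries, while Pdgfra ran over a 1.80-fold range.

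**Figure D1:**
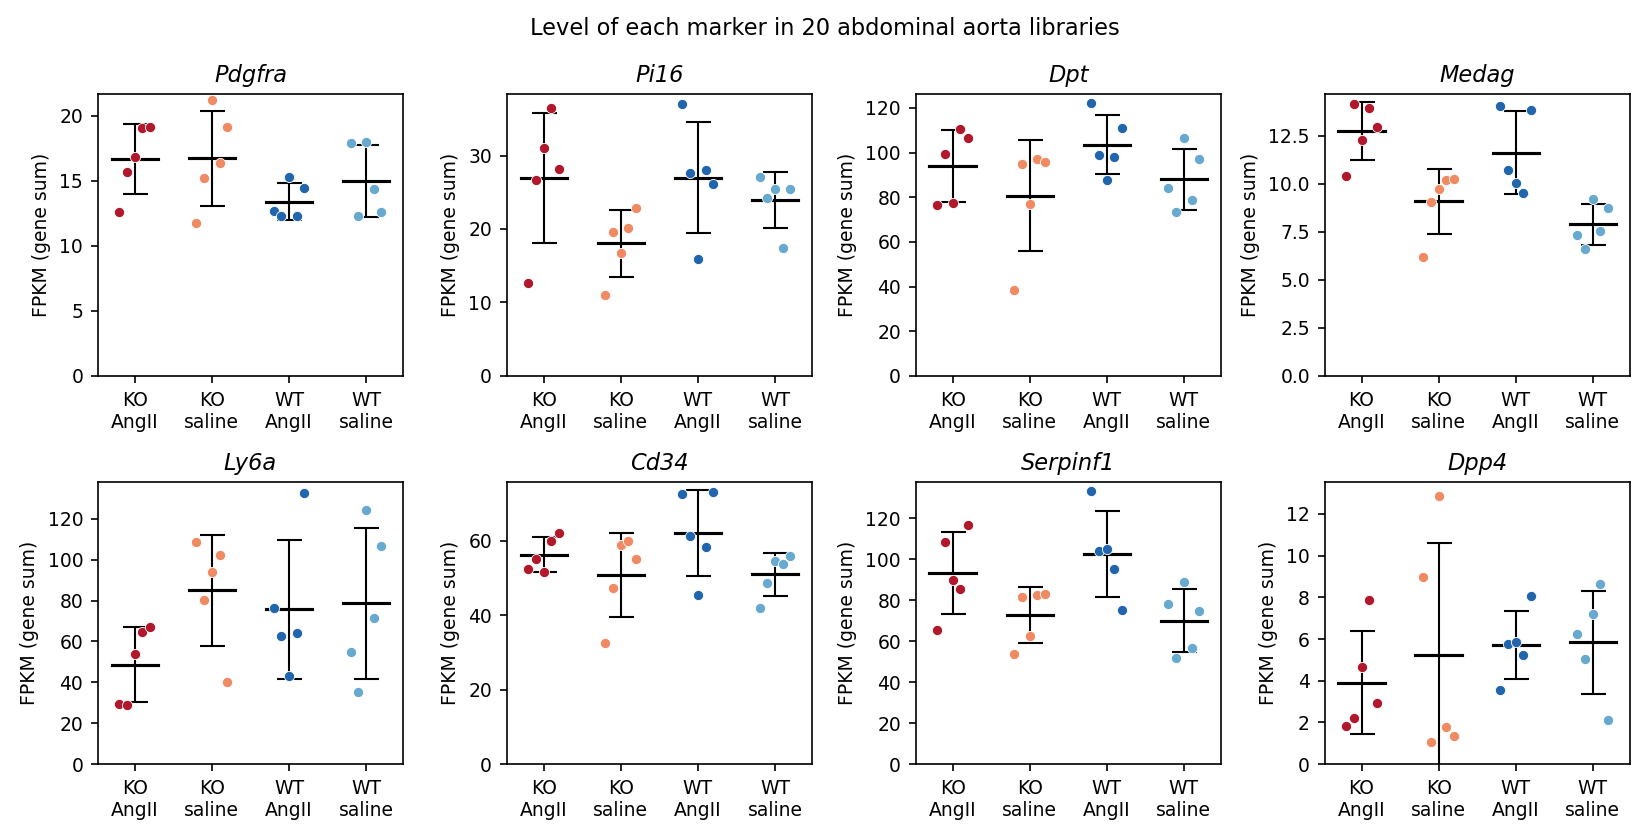
Each point is the FPKM of a gene (sum over its transcripts) in a single library, with the mean (bar) and SD (whiskers, cut off at 0 for Dpp4) of each group of 5. The 5 KO AngII and 5 WT AngII libraries lie above the 5 saline libraries of the same genotype for Medag and for no other gene of the 8, and Dpp4 in KO saline aortas splits into 2 high and 3 low libraries.

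AngII was first compared with saline within each genotype, to ask whether the adventitial genes differ with the hormone. Limma called 0 of the 8 genes in KO aortas, where it called 0 of 14992 genes (0.0%), and 0 of the 8 in WT aortas, where it also called 0 genes (0.0%). At an unadjusted p under 0.05 limma listed 595 genes in KO and 458 in WT, 3.97% and 3.05% of those tested, and 2 of the 8 in each genotype. Limma-voom on the recovered reads also called 0 genes in either genotype. The exact test called 0 as well, but its smallest possible p is 0.00794 over 252 arrangements. After adjustment over 14992 genes it could hardly call any gene, so this 0 adds nothing. The direction was mostly upward, with 6 of the 8 genes higher under AngII in KO and 6 of the 8 in WT, at a median log2 difference of 0.23 in KO and 0.19 in WT. The medians of all tested genes were -0.06 in KO and 0.02 in WT. Markers of some other cell types differed alongside in KO, with 0 called in each list (limma, smallest adjusted p = 0.990). Higher under AngII were 10 of 11 tested smooth muscle genes (median 0.43), 8 of 8 brown adipocyte genes (0.56) and 5 of 5 tested mesothelial genes (1.02). Lower were 10 of 10 skeletal muscle genes (-2.01) and 12 of 12 T and NK cell genes (-0.24). Of 12 genes each, 5 endothelial (-0.01), 6 white adipocyte (0.01) and 4 macrophage genes (-0.12) were higher. The summed smooth muscle level was 982 to 1473 FPKM in KO AngII and 717 to 1282 FPKM in KO saline aortas. The summed brown adipocyte level was 823 to 2669 FPKM in KO AngII and 238 to 1788 FPKM in KO saline. The mesothelial level was 1.23 to 50.4 FPKM (median 3.16) and 1.07 to 2.54 FPKM (median 2.32) in those groups. The groups overlap in each of these levels. In WT the median differences of the smooth muscle, brown adipocyte, mesothelial and skeletal muscle lists were -0.13, -0.10, -0.31 and 0.0077, in this order. Of 12 genes each in WT, 11 T and NK cell (0.37), 8 macrophage (0.20), 5 endothelial (-0.04) and 4 white adipocyte genes (-0.18) were higher. The part of other cell types in the differences of the 8 genes was not tested.

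Medag was the gene of the set that separated the treatments in both genotypes. In KO aortas it stood at 10.4, 14.1, 12.3, 14.0 and 12.96 FPKM under AngII, against 6.17, 9.03, 9.72, 10.2 and 10.2 FPKM under saline. In WT aortas it stood at 14.0, 10.7, 10.02, 9.50 and 13.9 FPKM under AngII, against 7.31, 6.58, 9.21, 7.54 and 8.74 FPKM under saline. The treatments do not overlap in either genotype, although the lowest KO AngII library and the highest KO saline library differ by little. Of the 8 genes, 1 had such a gap, Medag, where AngII libraries lay wholly above saline libraries for 39 genes in KO (0.26% of those tested), for 50 in WT (0.334%) and for 3 in both (0.02%). The other genes of those 3 were Cd109 and Tnfrsf11b, named here after their values were seen. No gene lay wholly below in both (0.0%).

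On the log2 scale Medag was 0.46 ± 0.14 (SE) higher under AngII in KO (95% interval 0.16 to 0.76) and 0.50 ± 0.14 higher in WT (0.20 to 0.80), and the difference between the genotypes was -0.04 ± 0.20 (limma, adjusted p = 0.997). The exact permutation p was 0.00794 in each genotype, the smallest that 5 against 5 libraries can give. Over both genotypes the difference was 0.48 ± 0.10 (SE), and its limma p ranked 8 among 14992 genes, but it did not pass adjustment (adjusted p = 0.322). Its exact permutation p within genotypes was 3.15e-05, the smallest possible over 63504 arrangements, with an adjusted p of 0.157 over all genes tested. Since Medag belongs to a set chosen with earlier results of these data known, its rank and unadjusted p-values lend no support. In this averaged comparison limma called 0 of 14992 genes (0.0%) and listed 514 (3.43%) at an unadjusted p under 0.05, among them Medag and Serpinf1 of the 8. In bulk tissue, more cells of a type and more RNA per cell cannot be told apart, for this and every value that follows. The labels name no shared batch, day or litter. The limma p-values set a difference of group means against the spread within groups. The exact p-values set it against other arrangements of these libraries.

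After Medag, Serpinf1 had the largest difference over both genotypes. It stood at 65.7, 109, 90.0, 85.5 and 117 FPKM in KO AngII aortas, against 53.7, 81.8, 62.5, 82.8 and 82.8 FPKM in KO saline aortas. In WT it stood at 133, 104, 105, 95.2 and 75.1 FPKM under AngII, against 78.1, 51.8, 89.0, 56.6 and 75.0 FPKM under saline. In each genotype 1 AngII library lay below the highest saline library, so the groups overlap. The log2 difference was 0.35 ± 0.19 (SE) in KO, 0.55 ± 0.19 in WT and 0.45 ± 0.14 over both genotypes (limma, adjusted p = 0.749 for the last). The exact permutation p was 0.0873 in KO and 0.0238 in WT, and no adjusted value passed over all genes. The value depends on which transcripts are summed. With protein-coding transcripts alone the difference was 0.54 in KO and 0.16 in WT. Read counts, which are free of the scaling by transcript length, came to 161 ± 28.4 CPM (reads scaled to the library total) in KO AngII and 124 ± 37.6 in KO saline, against 164 ± 35.1 in WT AngII and 125 ± 28.2 in WT saline (SD, n = 5 each).

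The AngII differences of Pi16, Dpt, Cd34 and Pdgfra had 95% intervals that include 0. Pi16, a secreted peptidase inhibitor, averaged 27.0 ± 8.84 FPKM in KO AngII and 18.0 ± 4.52 in KO saline, with 27.0 ± 7.53 in WT AngII and 23.9 ± 3.81 in WT saline (SD, n = 5 each). Its log2 difference was 0.52 in KO (95% interval -0.02 to 1.05) and 0.14 in WT (-0.40 to 0.67). Leaving out 1 library at a time, the WT value was 0.013 (without WT AngII replicate 1) to 0.31 (without WT AngII replicate 3). Dpt averaged 94.1 ± 16.1 FPKM in KO AngII, 80.8 ± 25.0 in KO saline, 104 ± 13.2 in WT AngII and 88.2 ± 13.7 in WT saline. Cd34 averaged 56.2 ± 4.64, 50.7 ± 11.3, 62.1 ± 11.5 and 50.9 ± 5.71 FPKM in the same order of groups. The AngII differences of Dpt were 0.28 in KO and 0.23 in WT, and those of Cd34 were 0.18 and 0.27. KO saline replicate 1 had the lowest level of both (38.5 and 32.5 FPKM), and without it the KO difference was 0.03 for Dpt and 0.03 for Cd34. This library was also the lowest of its group for Pi16, Medag, Serpinf1 and Pdgfra. Their KO differences were 0.52, 0.46, 0.35 and 0.00 with all libraries, and 0.36, 0.34, 0.25 and -0.11 without it. Leaving out KO AngII replicate 1 instead gave 0.76, 0.53, 0.47 and 0.09. The AngII difference of Pdgfra was 0.00 in KO (95% interval -0.32 to 0.33) and -0.14 in WT (-0.46 to 0.18), and intervals of this width do not show that its level was the same in both treatments.

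**Figure D2:**
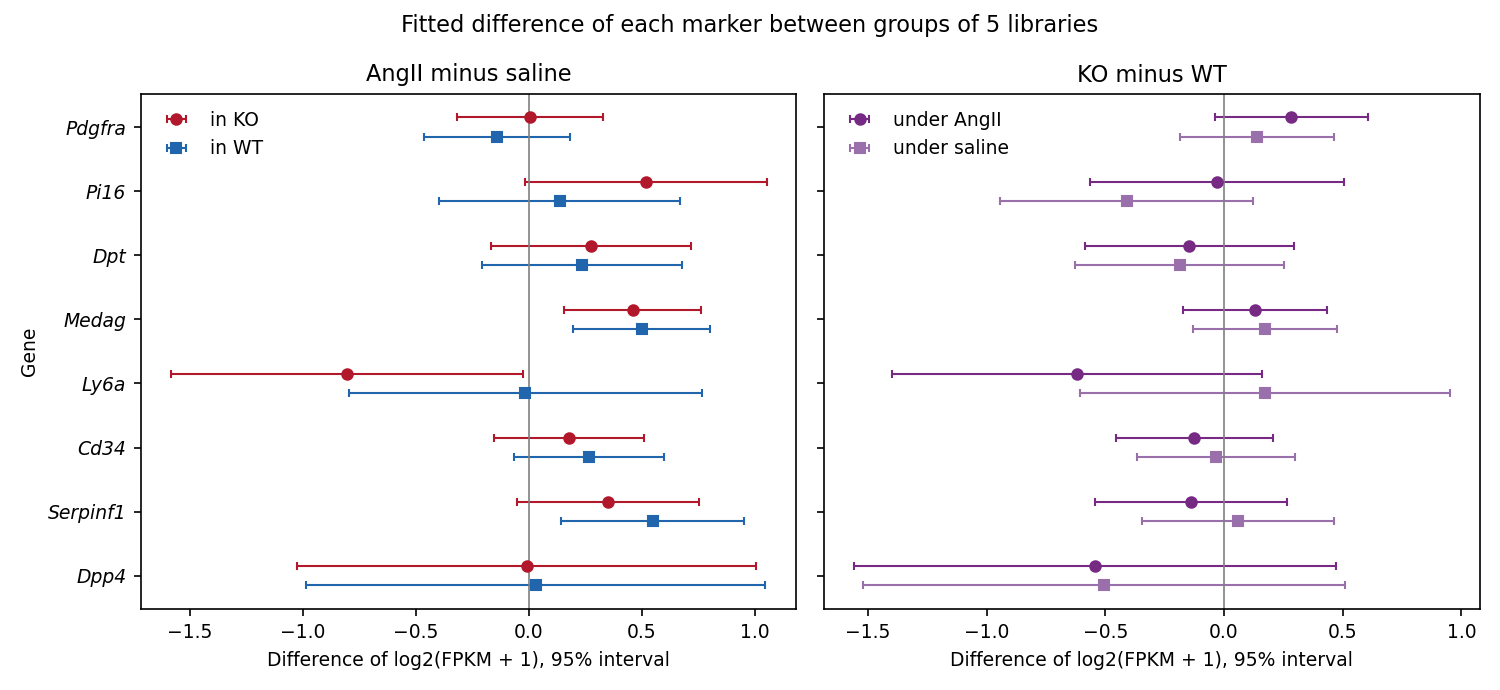
Points are fitted differences of mean log2(FPKM + 1) for each gene, AngII minus saline on the left and KO minus WT on the right, with 95% intervals from limma on 20 libraries. The intervals of Medag lie above 0 for AngII in both genotypes, those of Serpinf1 in WT and of Ly6a in KO also exclude 0 before adjustment, and every KO minus WT interval includes 0.

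Ly6a was lower on average under AngII in KO aortas, a difference that did not pass adjustment. It stood at 29.2, 29.1, 53.7, 64.5 and 66.99 FPKM in KO AngII, against 109, 80.1, 93.8, 102 and 40.4 FPKM in KO saline. In WT it stood at 76.5, 62.6, 43.0, 64.0 and 133 FPKM under AngII, against 54.8, 35.3, 124, 71.4 and 107 FPKM under saline. A single KO saline library, replicate 5, reached into the KO AngII range, while the WT groups overlap almost completely. The log2 difference was -0.81 ± 0.37 (SE) in KO (95% interval -1.59 to -0.03, limma, unadjusted p = 0.0433, adjusted p = 0.990) and -0.02 ± 0.37 in WT (-0.79 to 0.76). The difference between the genotypes was -0.79 ± 0.53 and did not pass the test either (limma, adjusted p = 0.995). In that test of the interaction limma called 0 of 14992 genes (0.0%) and 0 of the 8, and listed 502 genes (3.35%) and 0 of the 8 at an unadjusted p under 0.05. The exact permutation p in KO was 0.0714. Of its transcripts, Ly6a-204 had the smallest p, at a log2 difference of -1.12 in KO (limma across 25350 transcripts, unadjusted p = 0.0123, adjusted p = 0.997; 1 transcript, 0.00394%, was called), and Ly6a-203 was listed at 0 in 5 libraries, 4 of them KO. Reads were assigned to single transcripts by the authors, and no label states how reads shared with related Ly6 genes were treated.

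The genotypes were then compared within each treatment, to ask whether loss of Rab22a alters these genes with or without AngII. Under AngII limma called 275 of 14992 genes (1.83%) and 0 of the 8, and under saline 2 genes (0.0133%) and 0 of the 8. Over both treatments it called 622 genes (4.15%), again with 0 of the 8. At an unadjusted p under 0.05 there were 2589 genes under AngII (17.3%), 1104 under saline (7.36%) and 3026 over both treatments (20.2%), and 0 of the 8 in each. Limma-voom also called 0 of the 8 in all 3, although under saline it called only 1 gene in all. Under AngII the median difference of all tested genes was -0.10 on the deposited scale, -0.01 with median-ratio factors and 0.03 after quantile normalization. The called genes split into 59 higher and 216 lower in KO on the deposited scale, and into 251 higher and 125 lower after quantile normalization. Leaving out 1 library at a time gave between 9 called genes (without KO AngII replicate 3) and 483 (without WT AngII replicate 3) under AngII, and between 281 (without WT AngII replicate 2) and 1004 (without KO saline replicate 3) over both treatments, with 0 of the 8 among them each time.

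Pdgfra, the growth factor receptor, was the gene of the set with the smallest p between genotypes. It stood at 12.6, 15.7, 16.8, 19.03 and 19.1 FPKM in KO AngII aortas, against 12.7, 12.3, 15.3, 12.3 and 14.5 FPKM in WT AngII aortas. Under saline it stood at 11.8, 15.2, 21.2, 16.4 and 19.2 FPKM in KO and at 17.9, 12.3, 18.0, 14.4 and 12.6 FPKM in WT. Of the 5 KO AngII libraries, 4 lay above all WT AngII libraries, while the saline groups overlap. The log2 difference was 0.28 ± 0.15 (SE) under AngII (95% interval -0.04 to 0.61), 0.14 ± 0.15 under saline and 0.21 ± 0.11 over both treatments (limma, adjusted p = 0.356, 0.881 and 0.286). The exact permutation p under AngII was 0.0476, with an adjusted p of 0.261 over all genes tested. No gene of the 8 was free of overlap between genotypes, where KO libraries lay wholly above WT for 206 genes (1.37%) and wholly below for 575 (3.84%) under AngII, and for 39 (0.26%) and 153 (1.02%) under saline.

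Most of the level of Pdgfra, between 75.4% and 89.8% in each library, was assigned to 1 of 2 transcripts, and which of them it was differed between libraries. Pdgfra-201 (6549 bases) and Pdgfra-202 (6834 bases) share all 22 coding segments and 21 of 23 exons. They start at different first exons, from 75152306 to 75152457 in Pdgfra-201 and from 75155899 to 75156349 in Pdgfra-202. The larger of them held between 86.2% and 99.9% of the sum of the pair. Pdgfra-202 was the larger in 9 of 10 KO libraries, namely 5 of 5 under AngII and 4 of 5 under saline, and in 4 of 10 WT libraries, 3 under AngII and 1 under saline. In a fit across 25350 transcripts, added after the gene values were seen, Pdgfra-202 was 2.17 ± 0.59 (SE, log2) higher in KO than in WT over both treatments (limma, adjusted p = 0.0554) and Pdgfra-201 was -1.52 ± 0.58 (adjusted p = 0.180). Limma called 678 transcripts in that comparison (2.67%) and neither of these. Most of their sequence is shared, so the values of these transcripts are not independent, and the cause of the split was not tested.

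Serpinf1 was also divided between 2 transcripts in some libraries, but less completely than Pdgfra. Serpinf1-201 and Serpinf1-207 share 3 exons and 2 coding segments. The protein-coding Serpinf1-201 (1832 bases) carried most of the level in most libraries. Serpinf1-207, which is 882 bases long and annotated as subject to nonsense-mediated decay, exceeded 10 FPKM in 4 libraries: KO AngII replicate 5 at 41.0, KO saline replicate 1 at 36.6, WT AngII replicate 1 at 38.9 and WT AngII replicate 3 at 70.8 FPKM. In the other 16 libraries it lay between 0.94 and 4.37 FPKM. Serpinf1-201 still held 64.2% of the gene's level in KO AngII replicate 5 and 70.4% in WT AngII replicate 1. It held 31.1% in KO saline replicate 1 and 31.7% in WT AngII replicate 3. Since a read assigned to the shorter transcript adds more FPKM than a read assigned to the longer, the gene sums of these 4 libraries are raised relative to their reads. Dpt has a single transcript in the files. Medag-201 held 97.2% of the Medag level on average and 87.6% in KO saline replicate 3, where it was lowest, and with protein-coding transcripts alone the AngII difference of Medag was 0.49 in KO and 0.53 in WT.

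**Figure D3:**
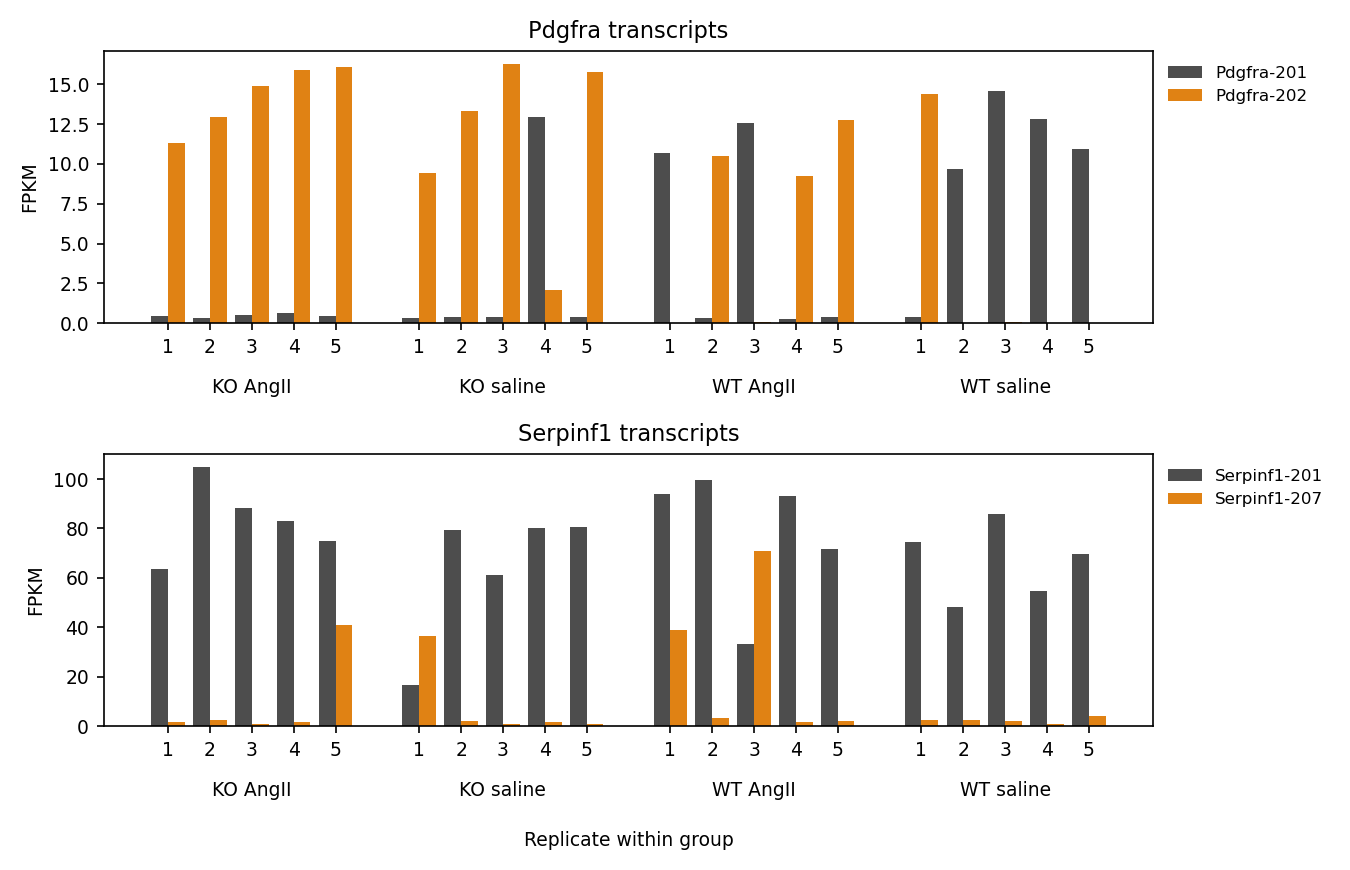
Bars are the FPKM of Pdgfra-201 and Pdgfra-202 (top) and of Serpinf1-201 and Serpinf1-207 (bottom) in each of the 20 libraries, by group and replicate. Pdgfra-202 is the taller bar in 9 of 10 KO and 4 of 10 WT libraries, and Serpinf1-207 rises above 10 FPKM in 4 libraries.

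Dpp4 was lower in KO than in WT on average, and it varied more between libraries than between groups. It stood at 1.84, 2.22, 4.66, 7.89 and 2.95 FPKM in KO AngII, at 8.98, 1.06, 12.9, 1.79 and 1.36 FPKM in KO saline, at 3.55, 5.78, 5.86, 5.23 and 8.09 FPKM in WT AngII and at 6.24, 5.03, 7.18, 8.65 and 2.13 FPKM in WT saline aortas. Both the highest and the lowest library are KO saline. The KO minus WT difference was -0.54 ± 0.48 (SE, log2) under AngII and -0.50 ± 0.48 under saline (limma, adjusted p = 0.589 and 0.872). Leaving out 1 library at a time, the value under saline was -0.91 (without KO saline replicate 3) to -0.22 (without KO saline replicate 2), and the value under AngII was -0.79 to -0.38. The AngII difference was -0.01 in KO (95% interval -1.02 to 1.01) and 0.03 in WT (-0.98 to 1.05). Without KO saline replicates 1 and 3, which had the most Dpp4 and T cell RNA of their group, Dpp4 was called over both treatments. The KO minus WT difference was then -0.99 (limma, adjusted p = 0.0119), in a fit that called 3036 of 14992 genes, against 622 with all libraries. The choice was made after the data were seen and follows the level of Dpp4 itself, so it lends the call no support.

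In these libraries Dpp4, taken here as a fibroblast and progenitor marker, varied with immune cell genes and not with the other fibroblast genes. Which cells carry its RNA was not tested. With group means removed, its level followed 12 T and NK cell genes with Pearson r = 0.961 and Spearman rho = 0.929 over 20 libraries (permutation test, adjusted p = 0.00048 over 96 relations of the 8 genes with 12 lists). Without the 2 libraries farthest from the median of the list r was 0.945, and it was 0.969 within the 10 KO libraries and 0.957 within the 10 WT libraries. It followed 8 B and plasma cell genes at r = 0.938 and 12 macrophage genes at r = 0.892, and 32 other adventitial fibroblast and progenitor genes at r = -0.17. By rank Dpp4 ran opposite to the smooth muscle and mesothelial lists (Spearman rho = -0.683 and -0.570, permutation adjusted p = 0.0267 and 0.0226). Neither passed for Pearson's r (-0.55 and -0.42, permutation adjusted p = 0.0910 and 0.0871). The genes most like it over the 20 libraries were Stk26, Tnfsf8 and Dsg2 (r = 0.992, 0.988 and 0.988), and 2396 genes had r above 0.8. All 12 T and NK cell genes were lower in KO than in WT under AngII, with a median log2 difference of -1.80 and none called, and their part in the Dpp4 difference was not tested. The lowest libraries of the list, KO AngII replicates 1 and 2 and KO saline replicates 2 and 5, held between 7.99 and 14.1 FPKM of its summed level, and in them Dpp4 was between 1.06 and 2.22 FPKM.

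**Figure D4:**
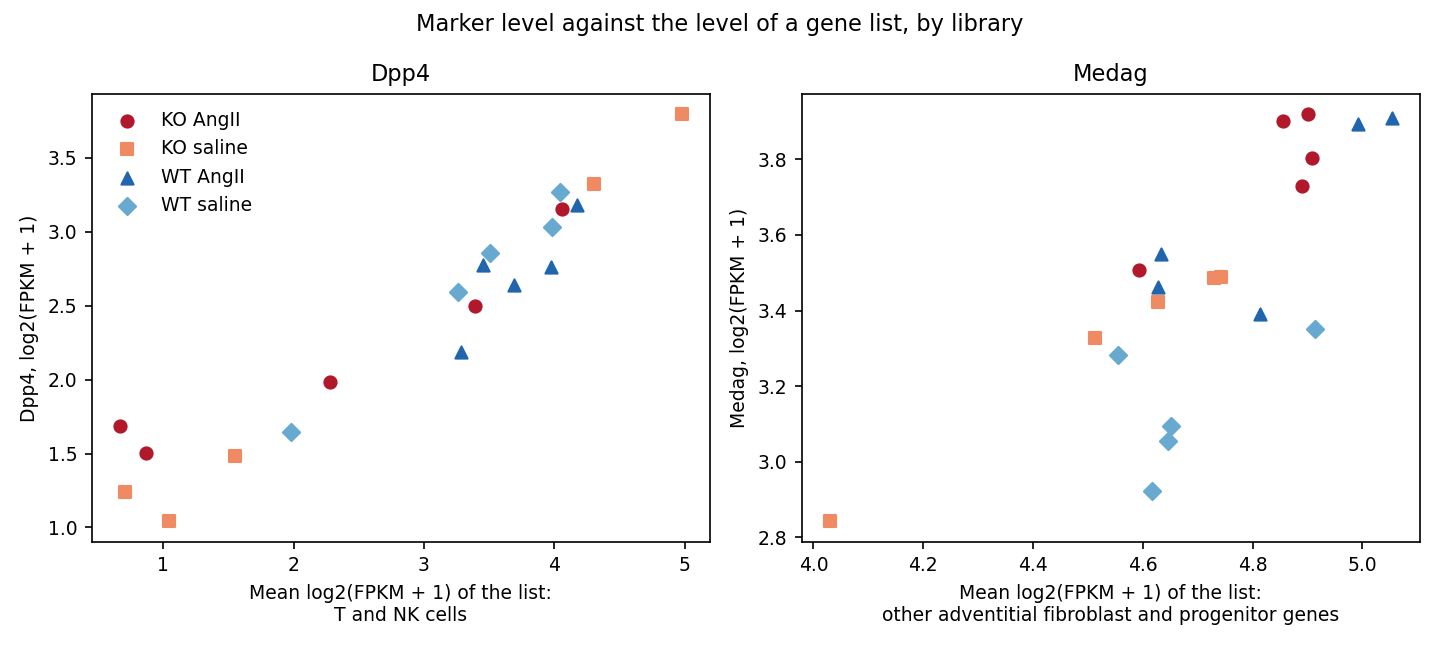
Each point is a library. The left panel plots Dpp4 against the mean log2(FPKM + 1) of 12 T and NK cell genes (r = 0.961 after group means are removed), and the right panel plots Medag against that of the other adventitial fibroblast and progenitor genes (r = 0.855).

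The other genes of the set were compared with the same lists. Medag followed the other adventitial genes at r = 0.855 (Spearman rho = 0.854, permutation adjusted p = 0.0064), Dpt at 0.822, Cd34 at 0.795, Pi16 at 0.693 and Pdgfra at 0.641, and all 5 passed for Pearson's r. Serpinf1 (r = 0.53) and Ly6a (r = 0.19) did not pass. The 2 libraries farthest from the list's median were KO AngII replicate 1 and KO saline replicate 1. Without them r was 0.737 for Medag, 0.618 for Dpt, 0.665 for Cd34, 0.507 for Pi16 and 0.365 for Pdgfra, values given without a test. By rank, with all libraries, Dpt, Cd34 and Pdgfra passed as well (Spearman rho = 0.720, 0.749 and 0.611, permutation adjusted p = 0.0424 for Pdgfra). Pi16 did not pass by rank (rho = 0.564, permutation adjusted p = 0.0718). Some genes followed lists of other cell types as well. Pi16, Dpt and Serpinf1 followed 12 smooth muscle genes at r = 0.735, 0.697 and 0.771, and Pdgfra followed 12 endothelial genes at r = 0.707. Ly6a passed with none of the 12 lists, its highest value being 0.50 with B and plasma cell genes.

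Among themselves the 8 genes formed 28 pairs, of which 23 correlated positively after group means were removed. The closest pairs were Dpt with Medag (Pearson r = 0.859, Spearman rho = 0.803), Medag with Cd34 (0.827 and 0.818) and Dpt with Cd34 (0.790 and 0.717). Dpt also followed Pi16 (0.681 and 0.648) and Serpinf1 (0.658 and 0.678), and Pi16 followed Medag (0.655 and 0.513). These 6 pairs passed for Pearson's r (permutation test, adjusted p between 0.00196 and 0.0239 over 28 pairs), and 5 of them for Spearman's rho, the last pair excepted. The relations lean on few libraries. With the 2 libraries farthest from the median of the first gene left out of each pair, r was 0.768 for Dpt with Medag, 0.748 for Medag with Cd34 and 0.622 for Dpt with Cd34, and 1 of 28 pairs passed. Dpp4 was negative with Dpt (r = -0.446) and Serpinf1 (-0.452), and no pair with Ly6a or Dpp4 passed on the deposited scale. The pairs of Dpp4 depend on the scaling. With median-ratio factors r was -0.682 with Dpt, -0.668 with Serpinf1, -0.544 with Cd34 and -0.542 with Medag, against -0.18 with Cd34 and -0.20 with Medag on the deposited scale, and with Pdgfra it was -0.14 in place of 0.28.

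**Figure D5:**
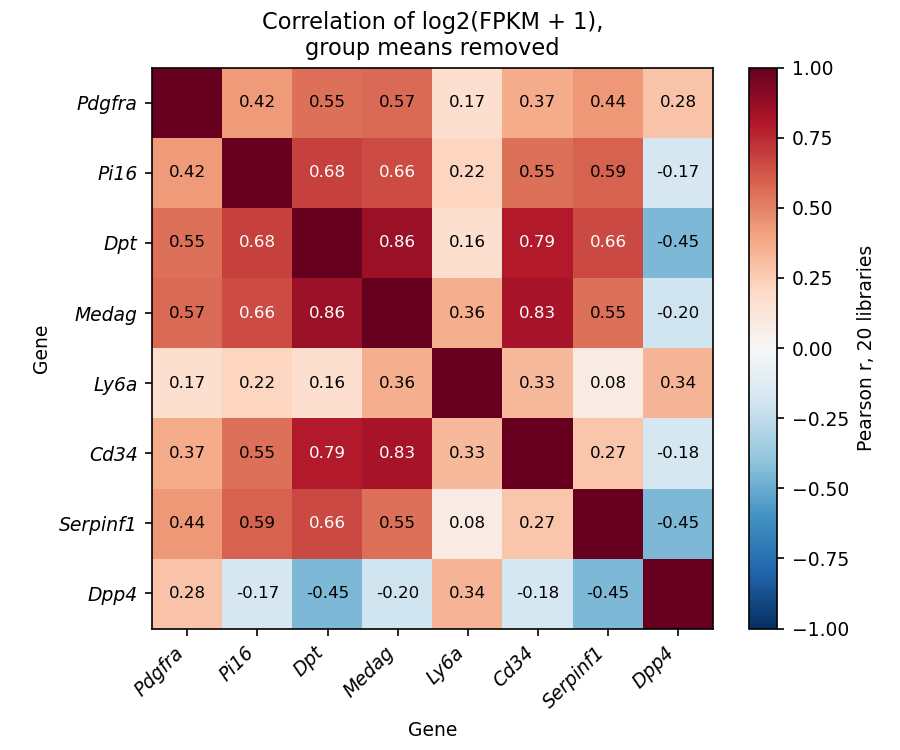
The grid gives Pearson's r of log2(FPKM + 1) between each pair of genes over 20 libraries after group means are removed, from blue (-1) to red (1). Dpt, Medag and Cd34 form the block of highest values (0.79 to 0.86), and the Dpp4 row holds the negative ones.

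The promoters of the 3 genes that varied together most closely, and of Pdgfra because its transcripts have separate starts, are shown as the 250 bases before the RefSeq start (GRCm38.p6, all on the plus strand, 5′ to 3′), with CG dinucleotides in capitals. They come from RefSeq, where 7 of the 8 genes matched, all but Ly6a. The window of Medag is chr5:149411499-149411748, that of Dpt chr1:164796413-164796662, that of Cd34 chr1:194938571-194938820 and that of Pdgfra, before the first exon of Pdgfra-201, chr5:75152001-75152250.
Medag: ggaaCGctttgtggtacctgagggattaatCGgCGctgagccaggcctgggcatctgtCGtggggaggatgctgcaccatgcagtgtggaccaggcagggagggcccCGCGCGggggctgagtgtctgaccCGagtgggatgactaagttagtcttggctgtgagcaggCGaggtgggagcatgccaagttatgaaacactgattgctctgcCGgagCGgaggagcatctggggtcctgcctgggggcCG
Dpt: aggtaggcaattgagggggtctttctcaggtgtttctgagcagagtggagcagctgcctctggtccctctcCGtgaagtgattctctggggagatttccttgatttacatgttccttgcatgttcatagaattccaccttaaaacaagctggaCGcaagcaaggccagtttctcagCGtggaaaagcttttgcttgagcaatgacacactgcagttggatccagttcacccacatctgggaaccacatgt
Cd34: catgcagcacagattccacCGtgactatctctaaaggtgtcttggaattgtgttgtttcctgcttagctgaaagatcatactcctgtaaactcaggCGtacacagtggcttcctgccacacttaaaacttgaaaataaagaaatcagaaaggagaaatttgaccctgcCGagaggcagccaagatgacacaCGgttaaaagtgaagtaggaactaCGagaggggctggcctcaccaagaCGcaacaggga
Pdgfra: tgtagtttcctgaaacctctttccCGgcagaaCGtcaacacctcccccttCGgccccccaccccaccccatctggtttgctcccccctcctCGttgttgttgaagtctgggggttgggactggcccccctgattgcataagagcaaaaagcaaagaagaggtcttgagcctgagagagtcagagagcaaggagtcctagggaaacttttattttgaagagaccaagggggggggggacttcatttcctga
The first window of Medag holds 12 CG dinucleotides and 62.8% G or C, against 3 and 48.8% for Dpt, 6 and 46.4% for Cd34, and 4 and 54.4% for Pdgfra. A second RefSeq start of Medag, whose window is chr5:149413588-149413837 and is not shown, has 5 CG dinucleotides and 44.8% G or C. The median over 32817 promoters of the same length was 6 CG dinucleotides and 52.4% G or C. Searched on both strands, none of these 4 windows holds the TATA box TATAAA, present in 12.4% of all promoters, or the CCAAT box, present in 33.8%. None holds the GC box GGGCGG, present in 32.7%, or the AP-1 motif TGANTCA, present in 6.75%, and no matches overlapped. Of the other windows, Serpinf1 holds CCAAT in 3 places and Pi16 in 1, and Dpp4 holds TATAAA once. No letters shared by the 3 genes were found among these motifs, which says nothing of the factors that bind there.

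By likeness of pattern over the 20 libraries, group means removed, the nearest genes to Medag were Prrx2, Olfml2b and Fam114a1 (r = 0.883, 0.881 and 0.870), those to Dpt were Gas6, Plat and Gabra3 (0.917, 0.893 and 0.877), and those to Pdgfra were Hip1, Scara5 and Smg6 (0.926, 0.911 and 0.909). Pi16 was nearest to Ccn2, Cnn1 and Ccn3 (0.917, 0.914 and 0.888), of which Cnn1 encodes a smooth muscle calponin. Serpinf1 was nearest to Hbegf, Gas2l1 and Ttc23 (0.880, 0.872 and 0.859), and Cd34 to Vamp3, Txndc17 and Ubxn8 (0.844, 0.820 and 0.807). Ly6a stood most alone, with Tnfsf13os, Dnajc8 and Tsta3 at 0.803, 0.791 and 0.755, and 1 gene above 0.8. The mean of the 8 genes was followed most closely by Rhoj, Gdf10, Rcn1, Col6a1 and Gas6 (0.913, 0.895, 0.883, 0.868 and 0.866). These are descriptions over libraries that share the same groups and scaling, and carry no test.

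Related genes of the adventitia gave the setting for these values. Of 32 other adventitial fibroblast and progenitor genes 31 were tested, and 24 were higher under AngII in KO (median log2 difference 0.28) and 23 in WT (0.19), with 0 called in either. The small proteoglycan lumican, Lum, averaged 79.6 ± 26.3 FPKM in KO AngII, 46.0 ± 10.4 in KO saline, 46.1 ± 15.6 in WT AngII and 30.4 ± 6.90 in WT saline (SD, n = 5 each). It was the 1 gene of the list called in any comparison, 0.67 ± 0.17 (SE, log2) higher in KO over both treatments (limma, adjusted p = 0.0328). In that comparison limma called 622 of 14992 genes (4.15%), and 1 of the 31 tested list genes is near that share. The elastic fibre gene Mfap5 averaged 50.6 ± 11.3 FPKM in KO AngII and 18.9 ± 12.7 in KO saline, and did not pass (limma, adjusted p = 0.599).

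Genes of activated, matrix-producing fibroblasts were mostly higher under AngII. Of 20 tested, 18 were higher under AngII in KO (median 0.89) and 16 in WT (median 0.55), with 0 called in either. The list includes Acta2 and Tagln, which smooth muscle also expresses, and 10 of 11 other smooth muscle genes were higher in KO as well (median 0.43), against 5 of 11 in WT (-0.13). The part of smooth muscle RNA in these differences was not tested. Postn, encoding the matrix protein periostin, averaged 243 ± 77.4 FPKM in KO AngII and 82.2 ± 30.9 in KO saline, against 146 ± 26.2 in WT AngII and 105 ± 20.3 in WT saline (SD, n = 5 each). Fibronectin, Fn1, averaged 149.6 ± 39.0, 73.0 ± 23.97, 177 ± 60.9 and 86.7 ± 26.3 FPKM in those groups. Over both genotypes the log2 difference was 1.03 ± 0.20 for Postn, 1.35 ± 0.28 for Ccn2, a matricellular growth regulator, and 1.04 ± 0.22 for Fn1 (SE, limma, adjusted p = 0.322 each). Medag and Dpt followed the mean of this list at r = 0.850 and 0.783 across libraries.

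The ligands and the other receptors of the PDGF family did not pass in any comparison. Of 6 tested, 5 were higher under AngII in KO and 5 in WT. The beta receptor gene Pdgfrb averaged 11.3 ± 3.22 FPKM in KO AngII, 7.60 ± 1.16 in KO saline, 6.89 ± 1.17 in WT AngII and 6.76 ± 1.80 in WT saline (SD, n = 5 each), a KO minus WT difference of 0.62 ± 0.18 (SE, log2) under AngII (limma, adjusted p = 0.0843). The ligand gene Pdgfd averaged 6.77 ± 1.27, 4.40 ± 1.07, 5.00 ± 0.44 and 5.74 ± 0.96 FPKM in those groups. Hedgehog signals, which maintain Ly6a-positive adventitial progenitors in mice, were represented by 7 tested genes of 10, since Shh, Ihh and Gli3 fell below the filter. Of the 7, 5 were higher under AngII in KO and 3 in WT, and none was called in any comparison. The target gene Gli1 averaged 1.97 ± 0.94 FPKM in KO AngII, 1.84 ± 0.64 in KO saline, 2.64 ± 0.82 in WT AngII and 1.60 ± 0.94 in WT saline.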

How the data were processed

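The authors deposited FPKM per transcript for 20 libraries. The submitters' processing notes name mm10 and limma, and no aligner or counter was found in those sources. Per the labels' protocols, ribosomal RNA was depleted from total RNA. Of 110082 Ensembl transcripts, 109848 matched GENCODE M21 and were summed per gene. Values are whole multiples of 1 read, within 0.1 read, for over 99% of low values, which gave the reads. Genes at 1 FPKM or more in 5 libraries (14992) were fitted as log2(FPKM + 1), a scale that understates changes of low genes, with limma 3.58.1 (R 4.3.3, trend and robust), with calls at p under 0.05 after Benjamini-Hochberg adjustment over all genes. Exact permutation tests were two-sided and adjusted over all genes in place of the 48 planned tests. Correlations used 100000 shuffles within groups. The members and lists were chosen with earlier results of these data known. Genes named beside the 8 were taken from the 3 of each fibroblast, PDGF or Hedgehog list with the smallest p in a comparison, the 3 most correlated with each gene, and genes that define a cell type. Unannotated models, 10.6 to 12.9% of all FPKM, were not used.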

Additional observations from a re-analysis of the deposited data

How the results depend on the processing

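None of the 8 genes was called in any of the 7 comparisons under any alternative tried, with 1 exception. With KO saline replicates 1 and 3 removed, chosen after seeing the data, Dpp4 was called over both treatments (-0.99, limma, adjusted p = 0.0119). There limma called 3036 of 14992 genes, against 622 with all libraries. The differences that changed sign were all uncalled, and the cause was not tested. With a pseudocount of 0.1 they were, for AngII in KO Dpp4 (0.094) and for the interaction Dpp4 (0.039). With quantile normalization they were, for AngII in KO Dpp4 (0.054), for KO against WT under AngII Pi16 (0.14), Dpt (0.055), Cd34 (0.082), Serpinf1 (0.079), for KO against WT under saline Cd34 (0.040), for KO against WT over both treatments Cd34 (0.061), Serpinf1 (0.11) and for the interaction Medag (0.049), Cd34 (0.042), Dpp4 (0.012). With median-ratio factors they were, for AngII in KO Dpp4 (0.033), for KO against WT under AngII Pi16 (0.087), for KO against WT under saline Cd34 (0.019), for KO against WT over both treatments Cd34 (0.0070), Serpinf1 (0.047) and for the interaction Medag (0.024), Dpp4 (0.021). With limma-voom they were, for AngII in KO Dpp4 (0.12), for KO against WT under AngII Pi16 (0.0013), for KO against WT under saline Serpinf1 (-0.042) and for the interaction Serpinf1 (0.018), Dpp4 (0.10). With protein-coding transcripts alone they were, for AngII in WT Dpp4 (-0.0037), for AngII over both genotypes Dpp4 (-0.014), for KO against WT under AngII Serpinf1 (0.16), for KO against WT under saline Serpinf1 (-0.22) and for the interaction Serpinf1 (0.38). Without KO saline replicates 1 and 3 they were, for AngII in KO Pdgfra (-0.030), Dpt (-0.047), Dpp4 (0.91), for KO against WT under saline Dpt (0.14), Ly6a (-0.043), Cd34 (0.085), for KO against WT over both treatments Serpinf1 (0.061) and for the interaction Dpt (-0.28), Dpp4 (0.88).

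Leaving out 1 replicate at a time, the AngII difference of Medag was 0.34 to 0.53 in KO, 0.43 to 0.56 in WT and 0.42 to 0.51 over both. The ranges that cross 0 were, for AngII in KO, Dpp4 (-0.29 to 0.40), Pdgfra (-0.11 to 0.094), for AngII in WT Dpp4 (-0.23 to 0.18), Ly6a (-0.26 to 0.18), for AngII over both genotypes Dpp4 (-0.13 to 0.21), for KO against WT under AngII Pi16 (-0.20 to 0.21), for KO against WT under saline Cd34 (-0.10 to 0.12), Dpt (-0.27 to 0.057), Ly6a (-0.076 to 0.42), Serpinf1 (-0.041 to 0.16), for KO against WT over both treatments Serpinf1 (-0.092 to 0.019) and for the interaction Dpp4 (-0.32 to 0.36), Dpt (-0.20 to 0.13), Medag (-0.16 to 0.027).

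Counts of called genes moved more. Without the filter on low values limma called 11 genes for AngII in WT, 1 over both genotypes, 1 for the interaction, 20 for KO against WT under saline and 1173 over both treatments. For KO against WT under AngII (275) it called 1 with the compared groups alone, 70 with a replicate block, 147 with protein-coding transcripts and 790 without KO saline replicates 1 and 3. Under saline (2) it called 1 each with a 5 FPKM filter, quantile normalization, the compared groups alone, a replicate block or voom, and 49 without those replicates. Over both treatments (622) it called 367 with protein-coding transcripts and 3036 without KO saline replicates 1 and 3. Leaving out 1 replicate gave 0 to 4 for AngII in KO, 0 to 1 in WT, 0 to 5 over both, 0 for the interaction, 9 to 483 for KO against WT under AngII, 1 to 4 under saline and 281 to 1004 over both treatments. Of 28 pairs of the 8 genes, 6 correlated, 10 did with median-ratio factors and 1 did without the 2 farthest libraries. No pairing of libraries by replicate number was seen, which does not exclude one. Same-numbered libraries of different groups correlated at a median of -0.03 (-0.52 to 0.41). Differently numbered ones correlated at a median of 0.00093 (-0.65 to 0.64), and 3 of 20 libraries correlated best with their own number.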
